A study of Mus musculus with 6 samples.

Results

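T lymphocyte marker genes, 10 in number, were followed through freshly sorted cells of adult mouse hind-limb muscle. They are the CD3 chains Cd3d, Cd3e and Cd3g, the co-receptors Cd4 and Cd8a, the tyrosine kinases Lck and Zap70, the adhesion and co-stimulatory receptors Cd2 and Cd28, and the interleukin 7 receptor chain Il7r. The members were chosen by symbol, and all 10 were found among the 24062 genes of the normalised count table and among the 4939 genes of the counts-per-million (CPM) table. Muscle was digested and sorted on the red protein tdTomato, which Cre recombinase switches on from the Rosa26 locus after tamoxifen. Cells of adult C57BL/6 mice of genotype Tw2-CreERT2/+;R26-tdTO+ gave the labelled group Tw2pos (n = 2 libraries) and the unlabelled group Tw2neg (n = 2). Mice of genotype Pax7-CreERT2/+;R26-tdTO+ on the same strain gave Pax7pos (n = 1) and Pax7neg (n = 1). All 4 groups come from animals that carried 1 CreERT2 allele and the reporter and were given tamoxifen 3 times in all, 10 days ahead of the harvest. The label marks cells in which the Twist2 or Pax7 driver was active at treatment, together with their descendants, and the unlabelled fractions hold whatever else the digest released. Nothing in the labels assigns the replicates to different animals; p-values therefore reflect the scatter of these libraries only, and that scatter may be technical.

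T cells recognise peptides through a receptor whose antigen-binding chains have short tails and signal through the CD3 chains and the zeta chain. CD4 or CD8 binds the MHC molecule and brings the kinase Lck to the complex, Lck phosphorylates the CD3 and zeta tails, and Zap70 docks there and passes the signal on. CD28 adds the co-stimulatory signal, CD2 holds the T cell to its partner cell, and the interleukin 7 receptor keeps resting T cells alive. In resting muscle T cells are few, and they enter from the blood after injury. Several of these genes are not limited to T cells: Il7r is also used by lymphoid progenitors and innate lymphoid cells, Lck, Zap70 and Cd2 by natural killer cells, Cd2 also by mouse B cells, and Cd4 and Cd8a by subsets of dendritic cells.

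The libraries held between 10902318 and 13205751 reads in the Twist2 line, and the genes with CPM values held 6016469 reads in Pax7pos and 7565797 in Pax7neg. Fibro-adipogenic markers (matrix and surface genes of interstitial fibroblasts) summed to between 108017 and 126959 CPM in Tw2pos over 10 genes, against between 19309 and 61411 in the unlabelled libraries, and 9 satellite cell markers summed to 7567 CPM in Pax7pos against between 682 and 1332 elsewhere. The fibro-adipogenic sum was thus highest in Tw2pos and the satellite cell sum highest in Pax7pos. Gsn alone gave 42840 and 54623 CPM of the Tw2pos sums, and its change against Tw2neg was not called (log2 fold change 2.15, SE 1.20, limma adjusted p = 0.203). Pax7 itself stood at 303 CPM in Pax7pos, and Twist2 had 99.4 and 222 normalised counts in Tw2pos against 21.96 and 23.2 in Tw2neg.

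The CD3 genes lie in 1 cluster on chromosome 9 (GRCm38), in which Cd3g (44969572 to 44980431, minus strand), Cd3d (44981786 to 44987339, plus strand) and Cd3e (44998740 to 45009627, minus strand) together span 40056 bases. Cd3g and Cd3d are transcribed away from each other from starts 1355 bases apart. The 250 bases before each start are shown because the 3 genes share a locus and were all called lower in the comparison of labelled and unlabelled cells below (RefSeq sequence, build GRCm38.p6, 5′ to 3′; capitals mark TCF matches in Cd3d and a GATA match in Cd3g).
Cd3d, chr9:44981536-44981785, plus strand: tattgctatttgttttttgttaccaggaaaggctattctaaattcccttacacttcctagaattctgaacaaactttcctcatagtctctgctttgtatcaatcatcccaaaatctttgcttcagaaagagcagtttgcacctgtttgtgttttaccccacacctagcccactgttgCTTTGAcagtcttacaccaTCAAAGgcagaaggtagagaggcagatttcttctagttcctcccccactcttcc
Cd3g, chr9:44980432-44980681, minus strand: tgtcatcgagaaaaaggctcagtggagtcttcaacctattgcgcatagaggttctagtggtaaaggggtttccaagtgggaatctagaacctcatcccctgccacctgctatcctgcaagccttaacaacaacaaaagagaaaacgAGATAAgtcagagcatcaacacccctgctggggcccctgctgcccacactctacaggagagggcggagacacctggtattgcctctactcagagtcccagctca
Cd3e, chr9:45009612-45009861, minus strand: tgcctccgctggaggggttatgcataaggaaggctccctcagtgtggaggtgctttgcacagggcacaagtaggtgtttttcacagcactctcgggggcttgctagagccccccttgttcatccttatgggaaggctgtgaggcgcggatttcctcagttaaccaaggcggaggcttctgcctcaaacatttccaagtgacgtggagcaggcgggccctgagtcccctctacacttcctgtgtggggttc
Letters searched on both strands were CTTTGA for TCF factors, AGATAA for GATA factors, TGTGGT for RUNX factors, CCGGAA for ETS factors, TATAAA for a TATA box and CANNTG for E-boxes. The RefSeq table matched 7 of the 10 members, with 10 start sites, and 0 matches of one motif overlapped a match of another there. TCF letters were found before 2 of the 10 starts (Cd3d, and 1 start of Zap70), against 13.8% of all 32851 mouse promoters of this length. GATA letters were found before 1 start (9.99% of all promoters), RUNX letters before 2 (14.05%), ETS letters before 1 (12.0%) and a TATA box before 0 (12.4%). E-box letters stood before 9 of the 10 starts and before 66.2% of all promoters.

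All 10 T cell genes were lower in Twist2-labelled than in unlabelled cells, and for each of them both Tw2pos libraries lay below both Tw2neg libraries. Over all 14155 genes tested, 20.0% were called lower and 38.6% in either direction (limma, adjusted p under 0.05), and in 39.2% the Tw2pos libraries lay entirely below the Tw2neg libraries. The log2 fold changes of the members ran from −6.65 to −4.13 with a median of −5.31, where the median of all genes was −0.04. In bulk RNA fewer T cells and less T cell RNA per cell cannot be told apart.

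The CD3 chains, which carry the signalling tails of the receptor, were close to the counting limit in labelled cells. Cd3d had 7.65 and 13.3 normalised counts in the Tw2pos libraries (replicates 1 and 2, from 6 and 11 reads) and 298 and 737 in Tw2neg. Cd3e had 6.37 and 16.9 normalised counts (5 and 14 reads) against 321 and 619. Cd3g had 2.55 and 9.65 (2 and 8 reads) against 337 and 776. In each of these genes the groups were separated by more than the spread within them: the lower Tw2neg library exceeded the higher Tw2pos library 22.4-fold for Cd3d, 19.0-fold for Cd3e and 34.9-fold for Cd3g. The limma log2 fold changes were −5.40 for Cd3d (SE 0.51, adjusted p = 0.00137), −5.28 for Cd3e (SE 0.54, adjusted p = 0.00171) and −6.38 for Cd3g (SE 0.65, adjusted p = 0.0017). Cd3e overlaps Gm48719 on the other strand, from which its reads cannot be told apart without the strand of the libraries, and Gm48720 on its own strand, which strand would not separate.

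Both co-receptors fell, Cd8a at the upper and Cd4 at the lower end of the members' range. The order at these ends is not firm: without Tw2pos replicate 2 Cd3g was lowest (−7.17, Cd8a −6.97) and Zap70 fell least (−4.39, Cd4 −4.95), without Tw2neg replicate 1 Cd3g was lowest (−6.98, Cd8a −6.84), and without Tw2neg replicate 2 Cd28 fell least (−3.60, Cd4 −3.66). Cd8a, the alpha chain of CD8 on cytotoxic T cells (chromosome 6, 71373427 to 71379173, plus strand), had 5.10 and 8.44 normalised counts in Tw2pos, from 4 and 7 reads, and 669 and 870 in Tw2neg. Its fitted change was −6.65 on the log2 scale (SE 0.35, limma adjusted p = 0.000435), and the groups lay 79.3-fold apart at their nearest libraries. Cd4, the co-receptor of helper T cells (chromosome 6, 124864692 to 124888221, minus strand), had 22.9 and 73.6 normalised counts in Tw2pos, from 18 and 61 reads, and 533 and 1027 in Tw2neg. The 2 Tw2pos libraries differed 3.21-fold for Cd4, and the nearest libraries of the groups lay 7.24-fold apart. The log2 fold change of Cd4 was −4.13 (SE 0.59, adjusted p = 0.00428). The other CD8 chain, Cd8b1, followed Cd8a, with 3 reads in each Tw2pos library against 524 and 832 in Tw2neg (log2 fold change −6.82, SE 0.36, adjusted p = 0.00045).

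The kinases were also low in labelled cells. Lck (chromosome 4, 129548344 to 129573641, minus strand) had 25.5 and 32.6 normalised counts in Tw2pos and 789 and 1546 in Tw2neg, which gave −5.21 on the log2 scale (SE 0.37, limma adjusted p = 0.000556). Zap70 (chromosome 1, 36761798 to 36782818, plus strand) had 17.8 and 25.3 against 279 and 553, which gave −4.14 on that scale (SE 0.41, limma adjusted p = 0.00157). Both genes kept their Tw2pos libraries closer together than Cd4 did, at 1.28-fold for Lck and 1.42-fold for Zap70. Zap70 overlaps the pseudogene Gm18828 on the opposite strand and Lck overlaps Mir8119 on its own strand, so that some reads of each may not belong to it.

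Of the surface receptors for partner cells, Cd2 (chromosome 3, 101275899 to 101287939, minus strand) had 11.5 and 21.7 normalised counts in Tw2pos and 434 and 1052 in Tw2neg. Cd28 (chromosome 1, 60716800 to 60773359, plus strand) had 20.4 and 25.3 against 287 and 712. Their log2 fold changes were −5.33 for Cd2 (SE 0.51, limma adjusted p = 0.00139) and −4.26 for Cd28 (SE 0.46, adjusted p = 0.00202). Their ligands are carried by antigen-presenting and other blood cells, and these fell as well: the log2 fold change was −4.42 for Cd48, the mouse ligand of CD2, −4.07 for Cd86 and −1.98 for Cd80.

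Il7r (chromosome 15, 9505788 to 9530176, minus strand) had 12.7 and 21.7 normalised counts in Tw2pos and 794 and 1661 in Tw2neg, or −6.02 on the log2 scale (SE 0.44, limma adjusted p = 0.000601). The genes of its cytokines went the other way. Il7, the survival factor that stromal cells make for lymphocytes, had 33.1 and 42.2 normalised counts in Tw2pos and 13.8 and 5.60 in Tw2neg, from 26, 35, 17 and 7 reads. Its log2 fold change was 1.96 (SE 0.54, limma adjusted p = 0.0337), and the Il7 libraries of the groups did not overlap; the antisense gene Gm16685 overlaps Il7. The Il7 call ended without Tw2pos replicate 1 (adjusted p = 0.0881), Tw2pos replicate 2 (0.155) or Tw2neg replicate 2 (0.0597), with no filter on level (0.057) and under library total scaling (0.05001), while edgeR and DESeq2 kept it. Tslp, which signals through Il7r and the partner chain Crlf2, had 102 and 103 normalised counts in Tw2pos against 39.0 and 32.8 (log2 fold change 1.49, SE 0.30, adjusted p = 0.013), a call that ended without Tw2pos replicate 1 (0.104) or replicate 2 (0.113). The partner chains Il2rg and Crlf2 themselves fell, with log2 fold changes of −5.12 and −1.14.

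**Figure D1:**
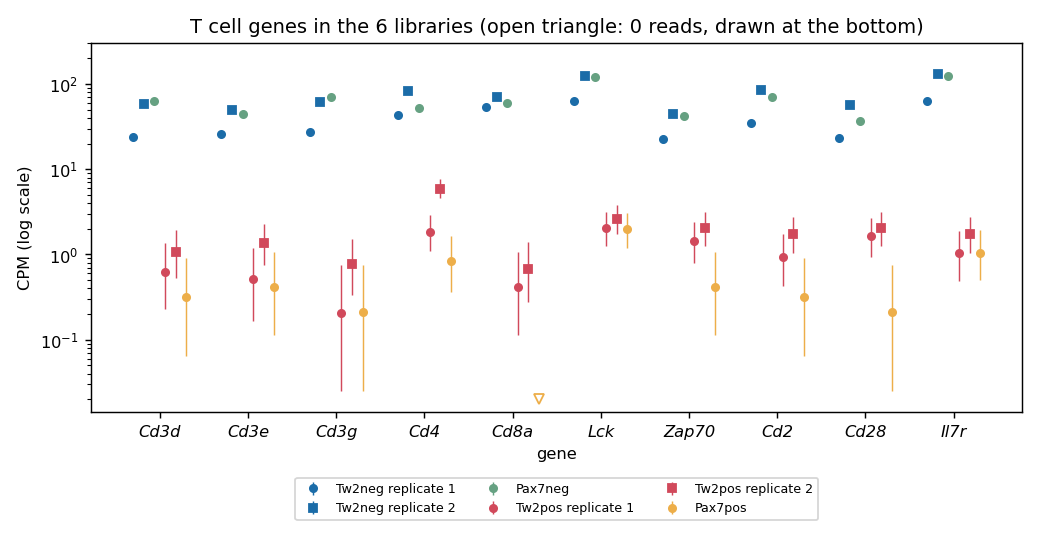
CPM of the 10 T cell genes on a log axis, with 1 point per library and bars for the 95% Poisson counting interval; Cd8a had 0 reads in Pax7pos and is drawn at the bottom. In every gene the 3 unlabelled libraries lie above the 3 labelled libraries, and Tw2pos replicate 2 lies above Tw2pos replicate 1.

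Summed over the 10 genes, Tw2pos held 10.7 CPM in replicate 1 (104 reads, 95% exact Poisson interval 8.75 to 13.0) and 20.1 CPM in replicate 2 (206 reads, 17.4 to 23.0). Tw2neg held 381 CPM (5829 reads, 371 to 391) and 764 CPM (11947 reads, 750.1 to 777.5). The labelled mean was thus 2.69% of the unlabelled mean; intervals and floors of this kind cover counting error only. By gene, the Tw2pos mean of normalised counts ran from 0.88% of the Tw2neg mean for Cd8a and 1.10% for Cd3g to 4.57% for Cd28, 5.19% for Zap70 and 6.19% for Cd4. The leukocyte gene Ptprc (CD45) moved with the members, at 10.9 and 18.2 CPM in Tw2pos and 501 and 969 in Tw2neg. Per CPM of Ptprc the members summed to 0.981 and 1.10 CPM in Tw2pos, 0.76 and 0.788 in Tw2neg, 0.982 in Pax7pos and 1.13 in Pax7neg.

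In the Pax7 line the members were also low in labelled cells. With 1 library a group there is no replicate check and no test. All 10 members were lower in Pax7pos by at least 2 on the log2 scale of CPM plus 10, as were 14.6% of the 4939 genes of the CPM table. The log2 differences ran from −3.61 for Il7r to −2.19 for Cd28. With Pax7pos values this low, their order follows the Pax7neg level, highest for Il7r (125 CPM) and Lck (120) and lowest for Cd28 (36.6). As a share of the Pax7neg level Lck fell least (1.66%). With 30 added in place of 10, only Il7r and Lck passed. The other members could not, even with no reads in Pax7pos. Summed over the members, Pax7pos held 5.75 CPM (55 reads, 95% exact Poisson interval 4.33 to 7.48) and Pax7neg 683 CPM (8499 reads, 668 to 698), so that the labelled library held 0.841% of the unlabelled one.

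Lck was the member with the most reads in Pax7pos, 19, at 1.98 CPM against 120 in Pax7neg, which is 1.66% (95% exact binomial interval 0.996 to 2.6). Il7r had 10 reads in Pax7pos and 1.04 against 125 CPM, and Cd4 had 8 reads and 0.836 against 51.8 CPM. The CD3 genes had 3 reads (Cd3d), 4 (Cd3e) and 2 (Cd3g) in Pax7pos, at 0.313, 0.418 and 0.209 CPM, and 62.9, 45.1 and 70.1 CPM in Pax7neg. These few reads correspond to 0.498% (0.103 to 1.46) of the Pax7neg level for Cd3d, 0.927% (0.252 to 2.39) for Cd3e and 0.298% (0.0361 to 1.08) for Cd3g. Zap70 had 4 reads and 0.418 against 41.7 CPM, Cd2 had 3 reads and 0.313 against 70.9 CPM, and Cd28 had 2 reads and 0.209 against 36.6 CPM. As a share of the Pax7neg level that was 1.002% (0.272 to 2.58) for Zap70, 0.442% (0.091 to 1.30) for Cd2 and 0.571% (0.069 to 2.08) for Cd28. Cd8a had 0 reads in Pax7pos against 59.2 CPM in Pax7neg. A floor of 3 reads per library (0.313 CPM) lies 189.0-fold below that level. The 95% exact binomial interval is wider and reaches up to 0.652% of the Pax7neg level.

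The labelled cells of both lines were then set side by side, the comparison that the series design names, in a limma fit over all 6 libraries of the CPM table. Among the 4790 genes tested 25.7% were called lower in Tw2pos and 59.6% in either direction, and none of the 10 T cell genes was called. The members passed the filter on mean level only through the unlabelled libraries, and in the labelled libraries they lay between 0 and 5.94 CPM. Differences are hard to detect at such levels, so the lack of calls beside that share is not a result about the members. The fit lends the single Pax7pos library the spread of the replicated groups. The log2 fold changes (Tw2pos minus Pax7pos) ran from 0.16 for Lck to 1.28 for Cd4, with a median of 0.55 beside 0.41 for all genes, and 0 members had an unadjusted p under 0.05. Cd4 had 1.85 and 5.94 CPM in Tw2pos against 0.836 in Pax7pos, or 1.28 on the log2 scale with a 95% interval from −0.16 to 2.72 (SE 0.62, limma adjusted p = 0.108). Cd28 had 1.65 and 2.05 CPM against 0.209, with 1.23 (−0.15 to 2.61) and adjusted p = 0.106. For Lck, at 2.06 and 2.63 CPM against 1.98, the interval was −0.93 to 1.24. The intervals allow differences of 2-fold and more in every member, so the levels of the labelled groups were not shown to be alike. Fold changes and intervals here are of CPM plus 1, which shrinks differences at levels this low. The member median was 1.42 with edgeR (0.18 for all genes) and 1.29 with DESeq2 (0.03 for all genes). Summed over the members, the Tw2pos mean was 2.68 times the level of the 1 Pax7pos library. edgeR on the recovered reads called 1 member as higher in Tw2pos (Cd8a, adjusted p = 0.0296) and DESeq2 1 (Cd28, 0.0465). Leaving out a Tw2neg library did not change the fold changes of the members, as Tw2neg is not in this contrast, and moved only the spread that the fit lends. Without Tw2pos replicate 1 the fold changes ran from 0.28 to 1.92, and without Tw2pos replicate 2 from −0.01 to 1.13. The 10 positive fold changes became 5 after quantile normalization, 9 with edgeR, 8 with DESeq2 and 8 without Tw2pos replicate 2.

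Unlabelled cells of the lines held the members at similar orders of magnitude, with 0 of 10 called by limma, beside 0.23% of all genes in either direction and 0.0835% called lower. The log2 fold changes (Tw2neg minus Pax7neg) ran from −0.76 for Cd3g to 0.19 for Cd4, with a median of −0.39 where the median of all genes was −0.07. Their direction depended on 1 library: without Tw2neg replicate 1 the median was 0.11 with 8 of 10 positive, and without Tw2neg replicate 2 it was −0.89 with 0 positive and 4 unadjusted p under 0.05. For Cd3g the 95% interval was −2.16 to 0.65, and for Cd4 it was −1.25 to 1.63, so that differences of 2-fold lie within the error. With all libraries 0 members had an unadjusted p under 0.05, and edgeR and DESeq2 each called 0 members. The Pax7neg library lay between the Tw2neg libraries for 8 members, and above both for Cd3d (62.9 CPM against 23.9 and 58.9) and Cd3g (70.1 against 27.0 and 62.0). Over all genes tested, 34.5% had the Pax7neg value between those of the Tw2neg libraries. The difference between the label contrasts of the lines, tested as an interaction in the same fit, called 0 members, beside 36.2% of all genes, with values from 0.58 for Cd8a to 1.34 for Zap70, and 0 members had an unadjusted p under 0.05. DESeq2 and edgeR also called 0 members in it. The size of this difference depended on the Tw2neg library. The member median was 1.58 without Tw2neg replicate 2 and 0.51 without Tw2neg replicate 1, beside 0.33 and 0.31 for all genes. These comparisons share libraries, as Tw2pos serves in the first and the second and Tw2neg in the first and the third.

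**Figure D2:**
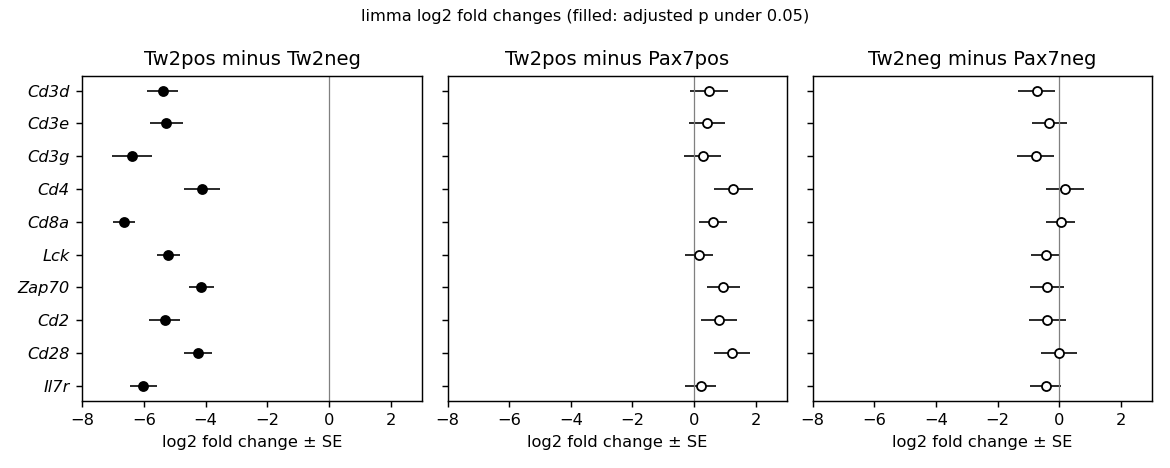
limma log2 fold changes of the 10 T cell genes with bars of ± 1 SE, in 3 comparisons; filled points have an adjusted p under 0.05. All members lie between −6.65 and −4.13 for Tw2pos minus Tw2neg, and none is filled in the comparisons between the lines.

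Levels were compared between genes only per length, as CPM per kilobase of annotated exon (GENCODE M21). In Tw2neg Cd2 stood highest at 51.6 ± 30.2 CPM per kilobase (SD, n = 2), followed by Cd3g at 43.5 ± 24.2 and Lck at 40.3 ± 18.4. Il7r (27.8 ± 13.8), Cd3e (25.7 ± 11.5) and Cd3d (25.6 ± 15.3) formed the middle of the order. Cd4 (20.1 ± 8.94), Cd8a (19.7 ± 3.57), Zap70 (14.8 ± 6.88) and Cd28 (9.20 ± 5.52) were lowest. The SDs of neighbours in this order overlapped, but they include a difference between the libraries that all members shared in direction. Within each Tw2neg library Zap70 (9.98 and 19.7) lay above Cd28 (5.30 and 13.1), and Lck lay above Il7r, as in Pax7neg. The order of Cd3g and Lck, of Cd3e and Cd3d, and of Cd4 and Cd8a changed between the Tw2neg libraries. Differences between genes were not tested. In Pax7neg Cd3g came first at 68.5 CPM per kilobase, before Cd2 at 61.5 and Lck at 51.6, and Cd28 was again last at 8.41.

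The Tw2neg replicates differed for every member, with replicate 2 the higher. The ratio of replicate 2 to replicate 1 in CPM was between 1.92 and 2.47 for 9 members, and 1.29 for Cd8a (95% exact binomial interval 1.18 to 1.42). The interval of Cd8a did not meet that of any other member; the lowest of these began at 1.70, for Cd3e. Over all 14155 genes the median fold between these libraries was 1.005, and over the T cell genes it was 2.03. B cell markers showed a median of 2.32, natural killer and cytotoxic markers 1.74 and leukocyte markers 1.70. Macrophage markers, at 0.727, fibro-adipogenic markers, at 0.726, satellite cell markers, at 0.56, and endothelial markers, at 0.371, had medians lower in replicate 2. Neutrophil markers, at 0.921, were mixed, with 3 of 10 higher in replicate 2. The highest list was that of the other co-stimulators and checkpoints, at 2.94: Icos had 398 and 1514 normalised counts, Ctla4 364 and 1403, and Tnfrsf9 56.9 and 349. Whether cell make-up, sorting or another step set the libraries apart was not tested.

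**Figure D3:**
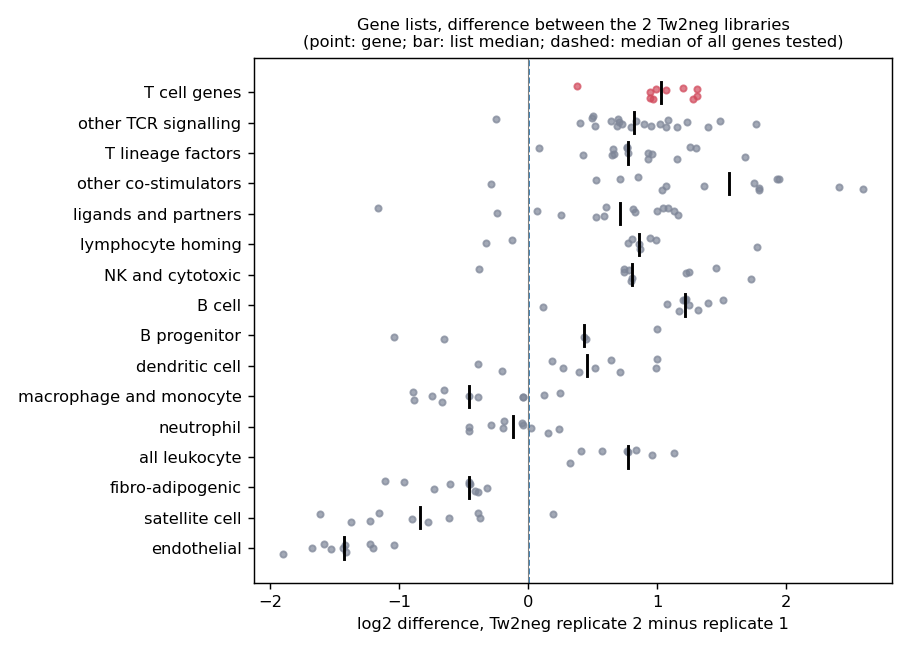
Log2 difference of normalised counts plus 1 between Tw2neg replicate 2 and replicate 1, with 1 point per gene, a bar at each list's median and a dashed line at the median of all genes tested. The T cell genes lie between 0.38 and 1.31, B cell markers have a median of 1.22, and endothelial markers one of −1.43.

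Because Cd4 and Cd8a fell by different amounts, their ratio differed between groups. Per base of exon, Cd4 reads over Cd8a reads gave 0.802 (95% exact binomial interval 0.723 to 0.89) and 1.19 (1.10 to 1.29) in the Tw2neg libraries and 0.882 (0.792 to 0.982) in Pax7neg. In Tw2pos the ratio was 4.53 (1.49 to 18.4) and 8.78 (4.01 to 22.8), from 4 and 7 reads of Cd8a. Both Tw2pos ratios lay above all 3 unlabelled ratios. No test was run on this ratio, which was chosen after the fold changes of its genes were seen. In Pax7pos, with 8 reads of Cd4 and 0 of Cd8a, only the lower bound of 1.72 can be given. Dendritic cell markers, some of whose carriers also use Cd4, were low in Tw2pos too. All 10 were called lower, with a median log2 fold change of −4.55, and 8 with no trend in the prior variance. Over 7 of these genes Tw2pos summed to 66.5 and 80.4 CPM against 270 and 330.04 in Tw2neg. Most of the Tw2pos sum was Bst2, at 40.5 and 56.1 CPM, whose log2 fold change was −0.87. The part of dendritic cells in the ratio was not tested.

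**Figure D4:**
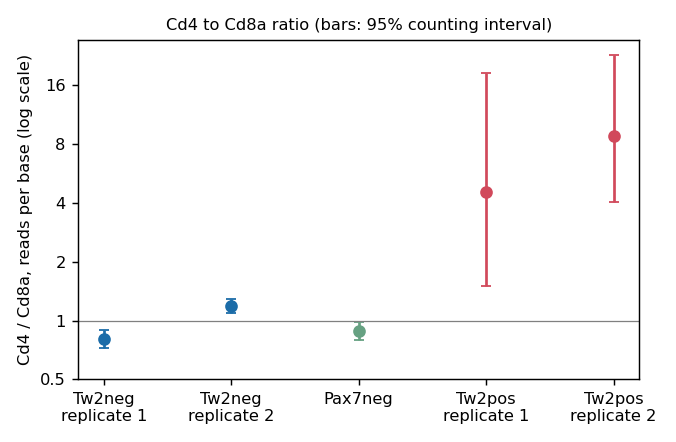
Ratio of Cd4 to Cd8a reads per base of exon on a log axis, with 1 point per library and bars for the 95% exact binomial counting interval; Pax7pos is left out, as it had 0 reads of Cd8a. The unlabelled libraries lie between 0.802 and 1.19, and the Tw2pos libraries at 4.53 and 8.78.

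Other genes of T cell receptor signalling behaved like the members. Of 22 listed subunits, adaptors and enzymes 20 fell, 0 rose and 2 did not pass, with a median log2 fold change of −5.42. Cd247, the zeta chain of the receptor, had 10.2 and 18.1 normalised counts in Tw2pos against 460 and 764 (−5.34, SE 0.40, limma adjusted p = 0.000654). The 2 that did not pass are enzymes that many cell types use: the kinase Fyn (log2 fold change −0.38, adjusted p = 0.239), which had the highest mean of the list, and the phospholipase Plcg1 (−0.30, adjusted p = 0.235). Fyn was called lower under library total scaling (0.0239) and without Tw2neg replicate 1 (0.0381).

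Of 15 transcription factors of the T lineage 13 fell, and Tox and Zbtb7b did not pass, with a list median of −4.05. Ikzf3, which encodes Aiolos, fell most (−6.25), and Ets1, the member of this list with the highest mean, had 1371 and 1567 normalised counts in Tw2pos against 6219 and 9852 (−2.42, SE 0.27, limma adjusted p = 0.00227). Foxp3, the factor of regulatory T cells, had 11.5 and 20.5 against 107 and 343. Of 14 other co-stimulators and checkpoints 13 fell and 1, Lag3, rose; the median was −4.22 and the largest fall was that of Slamf6 (−6.38). That count of 13 became 8 without Tw2neg replicate 2. Btla, an inhibitory receptor of lymphocytes with the highest mean there, had 112 and 137 normalised counts in Tw2pos against 1008 and 2108 (−3.54, adjusted p = 0.00175).

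Among 14 ligands and partner chains of the members 11 fell, 2 rose (Il7 and Tslp) and B2m did not pass (−0.84, adjusted p = 0.0955), with a median of −1.90. The MHC class II gene H2-Ab1, whose product CD4 binds, fell most, with 199 and 263 normalised counts in Tw2pos against 8457 and 16902 (−5.70, SE 0.35, limma adjusted p = 0.000482). The class I gene H2-K1, of the kind CD8 binds, stayed at 4806 and 6018 normalised counts in Tw2pos against 15715 and 22568 (−1.81, adjusted p = 0.00754), a call that ended without Tw2pos replicate 1 (0.0701).

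In the Pax7 line, 15 of 19 measured signalling genes, 6 of 10 transcription factors, 5 of 9 other co-stimulators and 8 of 12 ligands and partner chains were lower in Pax7pos by at least 2 on the log2 scale of CPM plus 10, and 0 of these were higher by that size. Between the labelled groups most of these genes passed in neither direction: 2 signalling genes were higher in Tw2pos, 1 was lower and 14 did not pass. Among the other co-stimulators 2 were higher in Tw2pos than in Pax7pos and 6 did not pass. The 2 were Btla, at 9.06 and 11.1 CPM against 0.313 (log2 fold change 3.07, SE 0.47, limma adjusted p = 0.00141), and Lag3 (1.96, adjusted p = 0.00226). The Btla call ended after quantile normalization (1.67, adjusted p = 0.0523). Between Tw2neg and Pax7neg limma called 0 of the 17 signalling genes, 0 of 10 transcription factors, 0 of 8 other co-stimulators and 0 of 11 ligands and partner chains. At an unadjusted p under 0.05 there was 1 gene, a co-stimulator, and edgeR and DESeq2 also called 0 of these genes.

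Most markers of other blood cells, and of endothelial cells, were also lower in Tw2pos than in Tw2neg, by amounts that differed between lists. Between Tw2pos and Pax7pos the median log2 fold change was 1.43 for macrophage and monocyte markers and 1.89 for endothelial markers, beside 0.55 for the members. All 10 natural killer and cytotoxic markers fell (median −4.54), and the defining natural killer receptor Ncr1 had 0 reads in both Tw2pos libraries and 22 and 40 in Tw2neg. The count of 10 became 9 with no filter on level. Without Tw2neg replicate 2 only 9 of these markers were tested and fewer were called, with a median of −3.92. Over these 10 markers Tw2pos summed to 2.78 and 9.55 CPM and Tw2neg to 107 and 227. Of 10 B cell markers 9 fell and Ebf1, also a factor of mesenchymal cells, rose (0.92, limma adjusted p = 0.0144), with a list median of −6.78; the Ebf1 call ended without Tw2pos replicate 1 (0.0639) or replicate 2 (0.168) and under library total scaling (0.0821). Cd79a, a chain of the B cell receptor, had 14 and 29 reads in Tw2pos and 1668 and 3951 in Tw2neg. All 10 neutrophil markers (median −7.25) and 10 of 11 tested macrophage and monocyte markers (median −1.99) fell. Of 10 endothelial markers 8 fell (median −2.17), a count that became 4 without Tw2pos replicate 2 and 5 with no filter or no trend. Of 10 fibro-adipogenic markers 7 rose (median 1.98), which became 3 without Tw2pos replicate 2, 5 without Tw2pos replicate 1 or Tw2neg replicate 2, 5 after quantile normalization (median 0.92) and 10 with DESeq2. All 8 general leukocyte markers fell (median −5.38), beside the member median of −5.31, and summed to 83.5 and 130.4 CPM in Tw2pos, 2472 and 4208 in Tw2neg, 42.3 in Pax7pos and 3090 in Pax7neg. These lists share the libraries of the members, and their part in the members' fall was not tested.

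**Figure D5:**
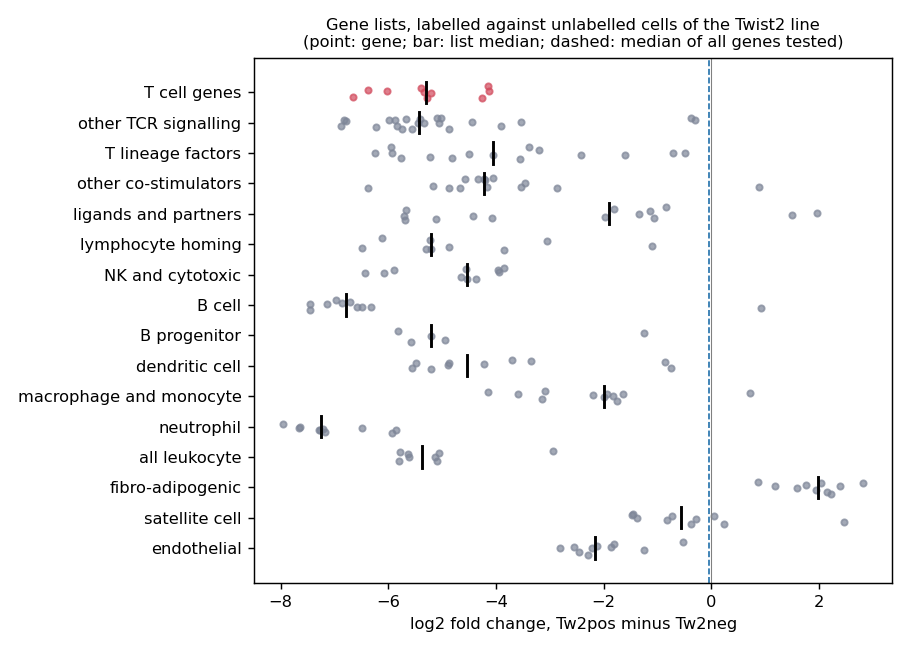
Log2 fold change of each tested gene for Tw2pos minus Tw2neg by list, with 1 point per gene, a bar at each list's median and a dashed line at the median of all genes tested (−0.04). The T cell genes have a median of −5.31, B cell markers one of −6.78, and fibro-adipogenic markers one of 1.98.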

How the data were processed

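RNA of 6 sorted samples was sequenced. Per the submitters' processing notes, TopHat2 2.0.0, DESeq2 1.6.3 and GRCm38/mm10 were used. For counter, annotation and strand, the sources used here give no name. The authors deposited normalised counts, a signal of gene counts divided by a size factor, for the Twist2 libraries, and CPM for genes they selected (10 CPM in 3 libraries and 2-fold, per the file's name), with the Twist2 groups as means; the log2 ratios of CPM plus 1 that the authors deposited, and their flag column of another kind, were not used for results. The value of 1 read was taken as the lowest normalised count above 0 of a library and, in CPM, as the smallest gap between values, so that the lowest Pax7neg value stands for 5 reads; Pax7 read numbers and intervals rest on this. Dividing by it gave whole reads for 100% of values within a tolerance of 0.01, from which CPM values of the single Twist2 libraries were computed.

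Groups were tested in R 4.3.3 (limma 3.58.1, trended prior variance) on log2 of the value plus 1, for genes averaging at least 10. The fits had 2 residual degrees of freedom, and p-values were adjusted by Benjamini-Hochberg over all genes. edgeR 4.0.16 and DESeq2 1.42.0 on the recovered reads, other scalings, pseudocounts, filters, a replicate block and leaving out each Twist2 library were the alternatives. Replicates differed by more than counting noise (chi-square per degree of freedom 13.7 in Tw2pos and 69.6 in Tw2neg). The members and lists were chosen with earlier results of these data known. Named genes are all members, from each list the gene with the highest mean and the largest called rise and fall, and Ptprc, Cd79a, Cd8b1, Cd247, Il7, Ncr1, Twist2 and Pax7; Cd48, Cd80, Cd86, Tslp, Il2rg, Crlf2, Icos, Ctla4, Tnfrsf9, Foxp3, Plcg1, Tox, Zbtb7b and B2m were named after their values were seen. Some genes that this rule names are not reported here. Positions and exon lengths are from GENCODE M21. Scripts were tested on simulated data. Tables and figures were made in Python 3.11.15 (matplotlib 3.10.9; scipy 1.17.1; pandas 2.3.3).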

Additional observations from a re-analysis of the deposited data

How the results depend on the processing

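All 10 members were called lower in Tw2pos than in Tw2neg under each of the 12 alternatives run for that comparison, with medians from −5.86 to −4.74. Over all genes that comparison called 5470 (2645 higher, 2825 lower), between 2586 and 7430 with 1 library left out, and 1600 higher and 5290 lower under library total scaling, where the median of all genes moved from −0.04 to −0.50. Between Tw2pos and Pax7pos, 0 members were called higher in the fit as planned, 1 with edgeR, 1 with DESeq2, 2 with the replicate block and between 0 and 3 with 1 library left out. All genes called there numbered 2853 (1624 higher, 1229 lower), 1847 after quantile normalization (852 and 995), 1501 when restricted to genes averaging 50 CPM or more, and between 1615 and 3705 with 1 library left out; DESeq2 gave 1310 higher and 1585 lower. Between Tw2neg and Pax7neg, all genes called were 11 as planned, 1 after quantile normalization, 1 with a pseudocount of 5, 3 with no filter, 1 with no trend, 30 with edgeR, 244 with DESeq2, 303 with the replicate block, 18 at 50 CPM and between 47 and 999 with 1 library left out. The difference of the label contrasts called 0 members, and between 0 and 4 with 1 library left out. Over all genes it called 1736 (1121 higher, 615 lower), 958 after quantile normalization, 979 at 50 CPM and between 933 and 3065 with 1 library left out, with 934 higher and 1008 lower in edgeR and 898 and 1332 in DESeq2. In the Pax7 line the 10 members called lower by size became 2 with a pseudocount of 30, and the 908 genes became 2536 at a size of at least 1, 1640 with a pseudocount of 1 and 409 with one of 30. Same-numbered replicates of the Twist2 groups share only a number in the labels, with a correlation of their deviations of 0.263 across 14155 genes; apart from the counts given here, the replicate block changed no call of a member count. With a pseudocount of 30 only Il7r and Lck had Pax7neg levels high enough to reach that size at all. Leaving out a Tw2neg library left the member fold changes between Tw2pos and Pax7pos as they were and changed only the spread. Other causes of these changes were not tested, beyond fewer samples or genes where these were left out. Depth limits the members in labelled cells, where most had under 30 reads a library.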

Other observations

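Genes that guide lymphocytes between blood, lymph nodes and tissue fell as well. All 9 listed homing genes were lower in Tw2pos than in Tw2neg, with a median log2 fold change of −5.21. Klf2 (−1.10) and S1pr1 (−3.05) fell less than that. Ccr7, the lymph node homing receptor, had 40.8 and 65.1 normalised counts in Tw2pos against 1968 and 6729 (−6.11, SE 0.57, limma adjusted p = 0.00132). Cxcr4, the receptor with the highest mean of that list, had 110 and 135 against 3280 and 6306 (−5.21, adjusted p = 0.000482). In Pax7pos Cxcr4 stood at 196 CPM beside 248 in Pax7neg. Ccr7, Klf2 and S1pr1 were named after their values were seen.

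Lag3, which encodes a checkpoint receptor of activated T cells, was the gene among the other co-stimulators and checkpoints that rose, with 572 and 691 normalised counts in Tw2pos against 376 and 307 in Tw2neg (log2 fold change 0.89, SE 0.21, limma adjusted p = 0.0207). It lies 16139 bases from Cd4. The Lag3 call ended without Tw2pos replicate 1 (adjusted p = 0.087) or replicate 2 (0.21) and under library total scaling (0.123).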
